A study of Rattus norvegicus with 110 samples.

Results

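The livers described here came from F2 male rats of cohort D, in which the F1 sire and the F0 grandsire had both received 50% CCl4, and they were compared between the high dose of CCl4 (group 22) and the olive oil vehicle (group 20). Members were taken by the first 2 digits of the animal number, which gave 7 livers in each group, 14 of the 83 liver and 110 total samples of the series. Group 22 received 50% CCl4 in olive oil and group 20 olive oil alone, by oral gavage 3 times weekly at 0.5 mL/kg, and livers were sampled at 39 days. The comparison addresses which transcripts the high dose changed in males with this ancestry, and how evenly the 7 treated males responded. All 14 animals were outbred Sprague Dawley males, and all descended from treated F0 and F1 males that recovered before mating with untreated females, so no animal in this comparison lacks a treated ancestor. Group 21 (8% CCl4, 7 livers) and the vehicle and high-dose groups of cohorts A (no treated ancestor), B (treated F1 sire) and C (treated F0 grandsire), 41 livers in all with 6 in the vehicle group of cohort C, were used only for side-by-side values. Both groups were necropsied over the same 4 dates. Littermates occurred within and between the groups, since animals 1 and 2 of group 22 had the same F1 sire as animal 1 of group 20. Animals 5, 9 and 10 of group 22 also had the F1 sires of animals 4, 9 and 10 of group 20. Animals are named below by their replicate number, and those of group 20 as vehicle animals.

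CCl4 is converted to radicals by cytochrome P450 enzymes, mostly in the hepatocytes around the central vein, and these radicals damage membranes and kill the cells. Surviving hepatocytes lower parts of their specialised programme, raise glutathione-dependent and other detoxifying enzymes and re-enter the cell cycle. Kupffer cells and recruited macrophages clear the debris, and stellate cells deposit collagen, so that repeated dosing leads to fibrosis.

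Liver mRNA was measured as estimated read pairs per gene. Library totals ranged from 32011243 to 41198049 in group 20 and from 34919631 to 46133641 in group 22, and 0 of the 83 liver libraries were identical to another. Gene symbols could be attached to 1488 of the genes tested (7.83%), all from a list that the study had chosen on these samples for effects of F0 treatment, so that the named genes are not a random draw of the liver transcriptome. Most cell type markers therefore had no symbol, and the stellate cell, fibrillar collagen, red blood cell and mesothelium lists had 0 members that could be read. Nor could any member of the fatty acid oxidation, other endothelium and sex-biased liver gene lists. Among hepatocyte genes with a symbol, Tat (tyrosine aminotransferase) averaged 29340.0 ± 10381 normalized counts (SD, n = 7) and Igfals (the acid-labile subunit that carries insulin-like growth factors in blood) 15796 ± 1983 in group 20. A normalized count is an estimated count scaled to a common library size. In bulk tissue, fewer cells of a type and less RNA per cell cannot be told apart.

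1 liver stood apart before any comparison was made. Over 12254 genes averaging more than 50 normalized counts, the log2 values of animal 7 had a mean correlation of 0.845 with the other 6 high-dose livers, against 0.908 to 0.926 for each of those 6. The lowest correlation of a pair in group 22 was 0.804, against 0.956 in group 20 and 0.958 in group 21. It was 0.908, 0.906 and 0.885 in the high-dose groups of cohorts A, B and C, and 0.890 in the vehicle group of cohort C. The 100 most abundant genes took 28.7% of the counts in animal 7, from 37.0% to 50.8% in the other 6 and from 50.1% to 53.6% in group 20. The number of genes with a count was 19331 in animal 7, 17773 to 19099 in the other 6 and 17123 to 18066 in group 20. The part of these differences in the results below was not tested. For named genes whose call or adjusted p was lost without animal 7, the value without it is given. Hells, Zbtb16, Acer2 and Adamts1 were not read singly without animal 7.

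The high dose changed the level of 4303 genes by at least 2-fold, 3160 upwards (16.6%) and 1143 downwards (6.01%), which was 22.6% of the genes tested (edgeR quasi-likelihood test over 12 groups of liver libraries, adjusted p under 0.1 with a log2 fold change beyond 1 either way), and 14701 were not called. The adjusted p alone was passed by 51.1%. The median log2 fold change was 2.02 among the genes that rose and −1.51 among those that fell, against 0.03 over all genes tested. Changes over 16-fold numbered 336 upwards and 58 downwards. All 7 animals of group 22 lay outside the range of the 7 vehicle animals for 2466 genes, 13% of those tested (7.99% higher and 4.98% lower), and for 1325 of the 2058 called genes with a mean normalized count over 50. In 229 called genes every vehicle liver had a count of 0, which allows up to 3 counts per library. Without animal 7 the number of called genes fell to 3491, of which 2628 rose and 863 fell. Of the 4303 genes, 3380 remained called in the same direction without this animal, 923 were lost, and 0 changed direction. Leaving out any other single animal of either group gave from 4112 to 4675 called genes, and 2874 genes were called in the same direction whichever of the 14 animals was left out.

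The size of the response differed between the 7 treated males. To measure it on genes chosen without cohort D, the 2633 genes called in the same direction in cohorts A, B and C were used, 1980 of which rose and 653 fell there. The response of a liver was the mean over these genes of its log2 difference from the vehicle mean, counted as positive in the direction seen in the other 3 cohorts. It was 1.91 in animal 1, 1.47 in animal 2, 1.39 in animal 4, 1.81 in animal 5, 3.18 in animal 7, 1.65 in animal 9 and 2.19 in animal 10. The 7 vehicle livers lay between −0.14 and 0.09, so the weakest responder was far above every vehicle liver. The strongest responder, animal 7, showed 2.28 times the log2 response of the weakest, animal 4. The mean was 1.94 ± 0.61 (SD, n = 7), and 1.74 ± 0.29 without animal 7. Animal 7 was the only high-dose liver of cohort D from its necropsy date, and against the vehicle animal of that date its response was 3.17. With each liver set against vehicle animals of its own date, the weakest responder was animal 2 (1.45).

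**Figure D1:**
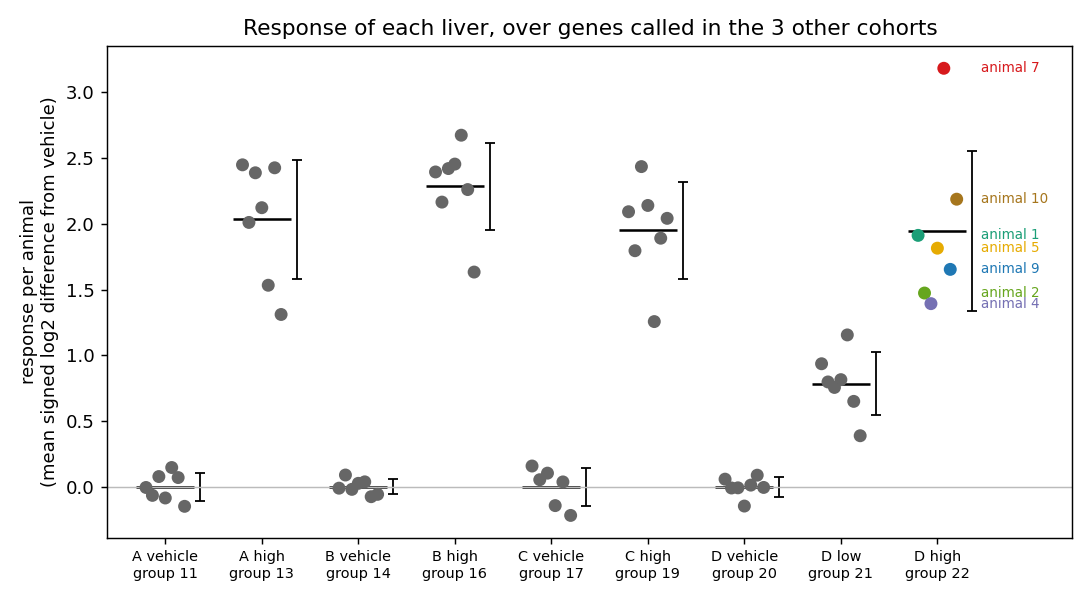
Response of each liver (mean signed log2 difference from the vehicle mean of its cohort, y axis) by group (x axis), over genes called in the same direction in the 3 other cohorts. Each point is 1 animal, the horizontal lines are group means and the bars are ± 1 SD. In group 22 animal 7 sits at 3.18 and the other 6 between 1.39 and 2.19.

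The same measure in the other high-dose groups, each on the genes called in the 3 remaining cohorts, was 2.03 ± 0.45 in cohort A, 2.28 ± 0.33 in cohort B and 1.95 ± 0.37 in cohort C (SD, n = 7 each). As a percentage of the mean, the SD was 31.3% in group 22, against 22.3% in cohort A, 14.4% in cohort B and 18.8% in cohort C. Without animal 7 it was 16.9% in group 22. The highest single value in the other 3 high-dose groups was 2.67, below that of animal 7. Whether the spread differs between cohorts was not tested.

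The range between animals was wider for the genes that fell than for those that rose, a difference that was not tested. Over the 1980 rising genes the mean log2 difference ranged from 1.49 in animal 2 to 3.15 in animal 7. Over the 653 falling genes it ranged from −0.86 in animal 4 to −3.28 in animal 7. Animals 4 and 9 had larger mean rises (1.57 and 1.80) than the size of their mean falls (−0.86 and −1.21), whereas in animals 1 and 5 the 2 were of like size (1.92 and −1.88, 1.80 and −1.87). Animal 7 had the strongest change of the 7 livers in 65.5% of the 2633 genes, and the next highest share was 12.8% in animal 10. The weakest change was most often that of animal 4, in 30.5% of the genes.

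Despite the differences in size, the direction was shared. Of the 2633 genes, 2629 had the same sign in cohort D and 2328 (88.4%) were called there in the same direction, against 22.6% of all tested genes called in either direction. The share of these genes that lay beyond the whole vehicle range was 72.4% in animal 4, 77.1% in animal 2, 80.3% in animal 5, 81.1% in animal 9, 81.3% in animal 1, 90.8% in animal 10 and 94.4% in animal 7. All 7 animals were beyond the vehicle range for 1352 genes, and 6 of 7 for another 463 (17.6%).

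Per gene, the spread between animals was also larger in group 22. The median SD of log2 normalized counts over 12254 genes was 0.40 in group 22, 0.23 in group 20 and 0.22 in group 21, and it ranged from 0.22 to 0.39 in the other 11 groups of the study. The value nearest to group 22 was that of group 17, the vehicle group of cohort C. Without animal 7 the median SD of group 22 was 0.35, and without animal 10 it was 0.37, both below that of group 17 and above those of the other high-dose groups (0.28, 0.26 and 0.30 for cohorts A, B and C with all animals). For 83.9% of genes averaging over 50 normalized counts in groups 20 and 22 the SD was larger in group 22 than in group 20. Among called genes above that level, the median SD in group 22 was 0.72 for the 1441 that rose and 0.89 for the 617 that fell, against 0.36 for the genes that were not called. The same genes already differed in group 20, with medians of 0.37, 0.31 and 0.21. The SD was larger in group 22 than in group 20 for 86.8%, 89.5% and 83.2% of them.

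**Figure D2:**
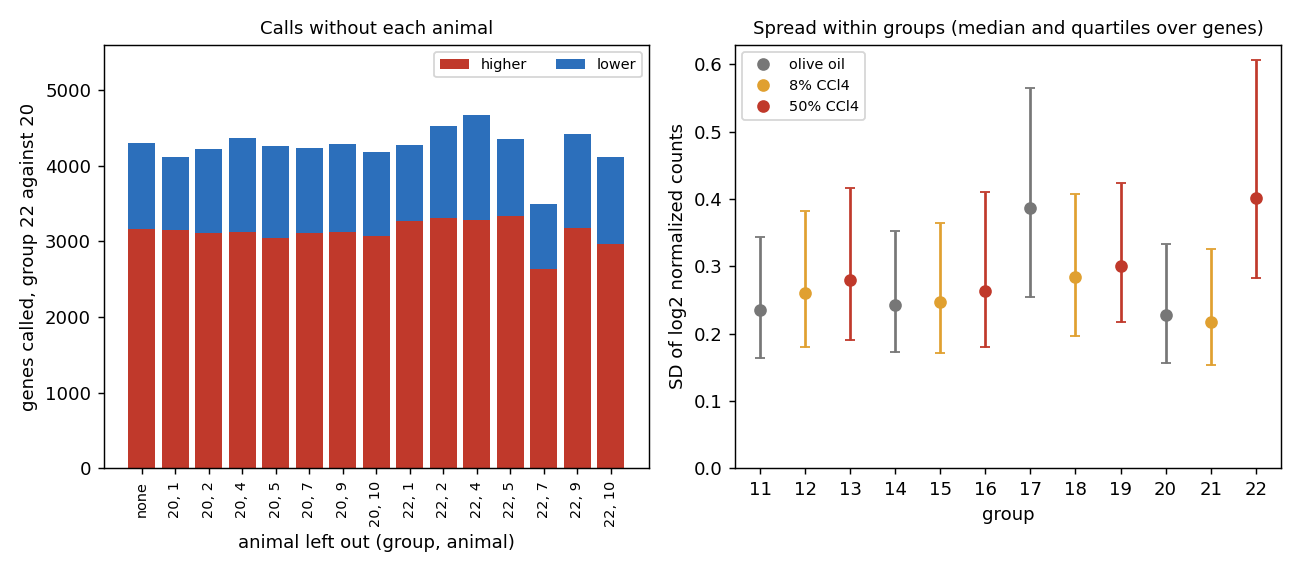
Left, number of genes called higher or lower in group 22 than in group 20 (y axis) with no animal or 1 animal left out (x axis). Right, median SD between animals of log2 normalized counts for each of the 12 groups, with bars from the lower to the upper quartile over genes. The count drops to 3491 without animal 7, and group 22 has the highest median SD, 0.40.

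Among genes with a symbol, 86 rose and 108 fell, 194 of 1488 (13%). Larger changes occurred among genes without a symbol. For example, ENSRNOG00000009528.4 averaged 0.352 normalized counts in group 20, 223 in group 21 and 622 in group 22. It was uneven in group 22, with 1700, 19.9, 11.2, 193, 2318, 36.7 and 74.9 in animals 1, 2, 4, 5, 7, 9 and 10. With or without a symbol, 115 genes rose by more than 5 on the log2 scale. Among genes with a symbol, the 10 largest rises whose counts did not overlap between the groups were Gpx2, Lcn2, Cyp2c24, S100a6, Psat1, Unc5b, Ccne1, Gstm3l, Tril and Spsb4. The 10 largest falls among them were A2m, Lrtm2, Slc1a2, Dab1, Olr35, Igfals, Cabp2, Vwce, Fgf11 and Lcn12. Of the rises, 4 were strongest in animal 7 (Lcn2, S100a6, Psat1 and Tril), and of the falls, 6 were lowest there (Lrtm2, Olr35, Igfals, Cabp2, Vwce and Lcn12). All 20 remained called without animal 7.

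**Figure D3:**
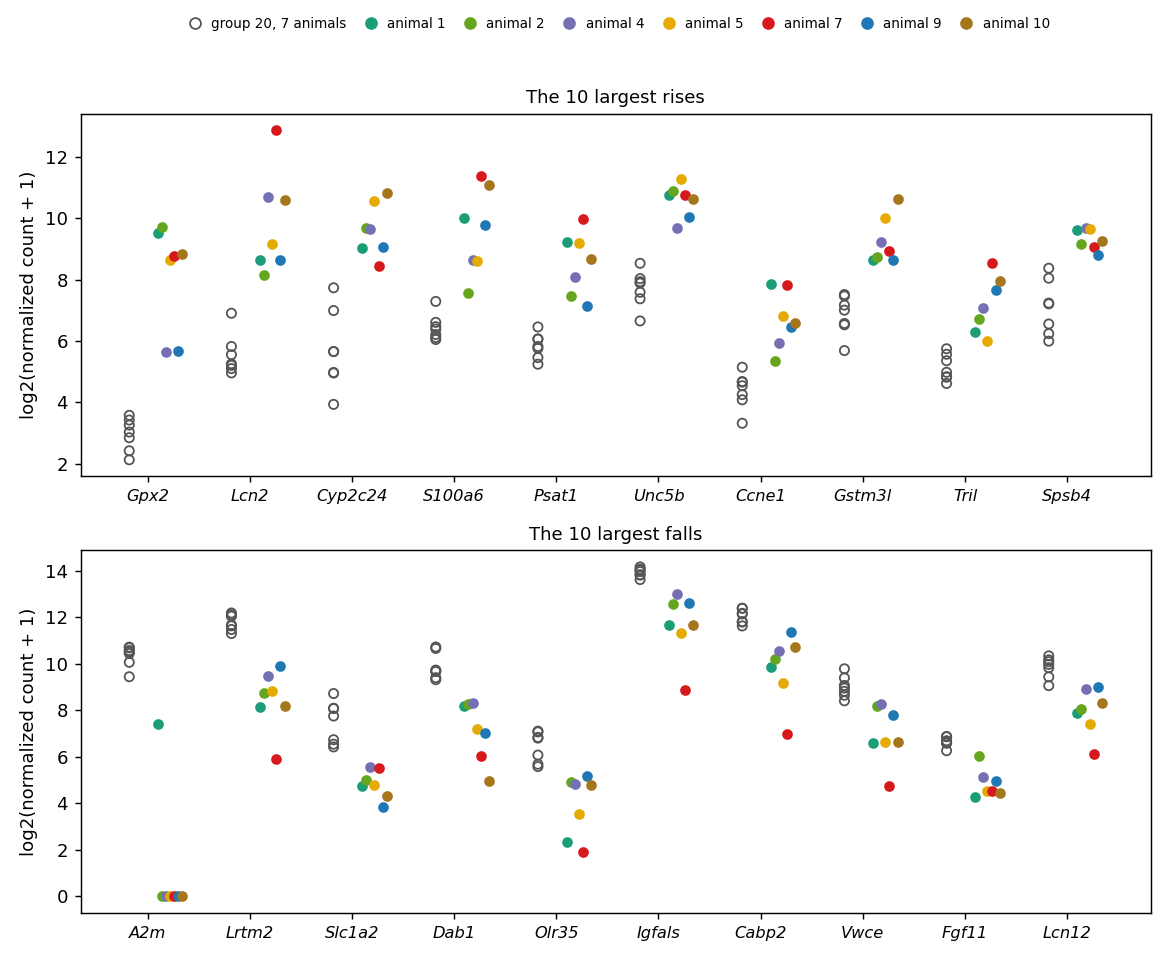
log2(normalized count + 1) (y axis) of the 10 largest rises (top) and 10 largest falls (bottom) among genes with a symbol, chosen among called genes without overlap of the 2 groups. Open circles are the 7 vehicle livers of group 20 and coloured circles the 7 livers of group 22. Animal 7 is the highest for Lcn2 and the lowest for Igfals, but lies among the other animals for Gpx2 and Unc5b.

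Gpx2, a glutathione peroxidase, showed the largest rise among genes with a symbol. In group 20 it had 4.33, 10.9, 9.69, 6.17, 3.35, 8.53 and 7.14 normalized counts. In group 22 it had 724, 832, 49.2, 401, 438, 50 and 457 in animals 1, 2, 4, 5, 7, 9 and 10. All treated livers were above all vehicle livers (log2 fold change 5.87 ± 0.82 (SE), adjusted p = 1.1e-08), but animals 4 and 9 were far below the other 5. The promoter of Gpx2 is shown because the gene is a known target of the oxidative stress factor NRF2 and was among the least even of the called genes with a symbol and over 50 normalized counts on average in group 22, and that of Pgm2, a phosphoglucomutase, because it had the smallest SD among those genes. Both are RefSeq sequences of build GRCr8, from 250 bases before to 50 after the gene's start, 5′ to 3′ on the gene's strand, at chr6:101229984-101230283 (minus strand) for Gpx2 and chr14:44553371-44553670 (minus strand) for Pgm2. Capitals mark the antioxidant response element core TGACNNNGC, searched on both strands.
Gpx2: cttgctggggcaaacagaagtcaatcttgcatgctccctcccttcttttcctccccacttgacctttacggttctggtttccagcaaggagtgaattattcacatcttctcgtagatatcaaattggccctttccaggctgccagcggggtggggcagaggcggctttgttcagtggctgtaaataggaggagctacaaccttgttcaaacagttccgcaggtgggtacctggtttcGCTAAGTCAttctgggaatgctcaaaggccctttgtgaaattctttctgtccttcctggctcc
Pgm2: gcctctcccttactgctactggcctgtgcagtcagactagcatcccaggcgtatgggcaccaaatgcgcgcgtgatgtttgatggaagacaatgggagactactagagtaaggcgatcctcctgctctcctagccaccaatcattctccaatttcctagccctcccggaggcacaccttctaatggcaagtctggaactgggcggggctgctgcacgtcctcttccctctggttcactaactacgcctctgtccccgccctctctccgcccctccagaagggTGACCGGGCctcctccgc
The match in Gpx2 is in the reverse orientation and begins 13 bases before the start, and that in Pgm2 is in the forward orientation and lies after the start. The core occurred in 12.1% of the 33469 promoters of the same length, and in 9 of the 56 named genes with a promoter in the table (16.1%). A match of letters is a description, not a binding site.

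Lcn2 (lipocalin-2, an iron-siderophore-binding protein of the acute phase) rose in every treated liver, to 393, 282, 1636, 571, 7478, 401 and 1548 in animals 1, 2, 4, 5, 7, 9 and 10, from 30 to 118 in group 20 (log2 fold change 5.11 ± 0.83 (SE), adjusted p = 5.7e-07). Its level in animal 7 was more than 4 times that of any other liver. Without animal 7 the log2 fold change was 3.99. A2m (alpha-2-macroglobulin, a protease inhibitor that rises in the acute phase of the rat) moved the other way. It had 699 to 1689.8 normalized counts in group 20 and 0 in 6 of the 7 treated livers, and 169 in animal 1. All 7 treated livers were thus below the vehicle range. The size of its log2 fold change, −5.71 ± 1.23 (SE, adjusted p = 1.2e-04), depended on the 1 treated library with counts. The identifier carries the names of A2m and of a near copy in the list of symbols, so reads may be split between them, and the value is uncertain.

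Of the other rises, S100a6 (a calcium-binding protein) had 65 to 155 normalized counts in group 20 and 1034, 189, 396, 391, 2648, 868 and 2154 in animals 1, 2, 4, 5, 7, 9 and 10 (log2 fold change 3.62 ± 0.51 (SE), adjusted p = 1.7e-08). Psat1, an enzyme of serine synthesis, went from between 36.8 and 86.7 to between 139.8 and 1015 (2.97 ± 0.32, adjusted p = 5.3e-12). Unc5b, a netrin receptor, was more even than the rises above it in size, with an SD of 0.54 on the log2 scale in group 22 against 0.86 to 1.72 for those 5. It had 165, 99.4, 235, 260.2, 191, 368 and 243 in group 20 and 1713, 1898, 822, 2489, 1716, 1052 and 1570.1 in animals 1, 2, 4, 5, 7, 9 and 10 (log2 fold change 2.85 ± 0.27 (SE), adjusted p = 9.9e-14). Ccne1 (cyclin E1, which drives entry into S phase) was highest in animal 1 (229) and animal 7 (224) and lowest in animal 2 (39.7), against 8.94 to 34.3 in group 20 (2.52 ± 0.38, adjusted p = 9.5e-08). Tril, an accessory protein of Toll-like receptor signalling, and Spsb4 differed by 2.27 ± 0.38, adjusted p = 7.8e-07, and 2.03 ± 0.44, adjusted p = 9.8e-05 on the log2 scale. Spsb4 had the smallest SD of the 10 rises, 0.34 (447 to 818 in group 22).

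Of the other falls, Igfals was at 12680.4 to 18484 normalized counts in group 20. In group 22 it was 3301, 6202, 8232, 2574, 476, 6309 and 3248 in animals 1, 2, 4, 5, 7, 9 and 10 (log2 fold change −1.87 ± 0.30 (SE), adjusted p = 3.0e-07). No treated liver reached the vehicle range, and animal 7 was more than 5 times below the next lowest. Lrtm2, which encodes a leucine-rich repeat membrane protein, fell from between 2536 and 4681 to between 59.9 and 968 (−2.98 ± 0.46, adjusted p = 1.5e-07), again with the lowest value in animal 7. Slc1a2, a glutamate transporter, fell from between 85.3 and 423 to between 13.3 and 45.9 (−2.80 ± 0.45, adjusted p = 3.0e-07), and here animal 7 (45.6) was next to the highest of the 7. Dab1 (an adaptor of reelin signalling) fell to 30.7 in animal 10 and 65.4 in animal 7, and to between 131 and 315 in the others, from 639.9 to 1697 (−2.47 ± 0.43, adjusted p = 2.3e-06). The olfactory receptor gene Olr35, the calcium-binding protein gene Cabp2, Vwce, Fgf11 and the lipocalin gene Lcn12 fell with log2 fold changes from −2.29 to −1.71. Olr35, Gstm3l and Cyp2c24 belong to families of similar genes among which reads may be split.

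Genes were next read by role, from lists of pathway and cell type genes. Only part of each list had a symbol, or none of it, so the counts cover those members alone. For example, 2 of 36 members of the cytochrome P450 list could be read. The same held for 16 of 38 ribosome biogenesis genes and 9 of 16 genes that the study names. For comparison, 13% of the genes with a symbol were called and their median log2 fold change was −0.17, against 22.6% and 0.03 for all tested genes.

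**Figure D4:**
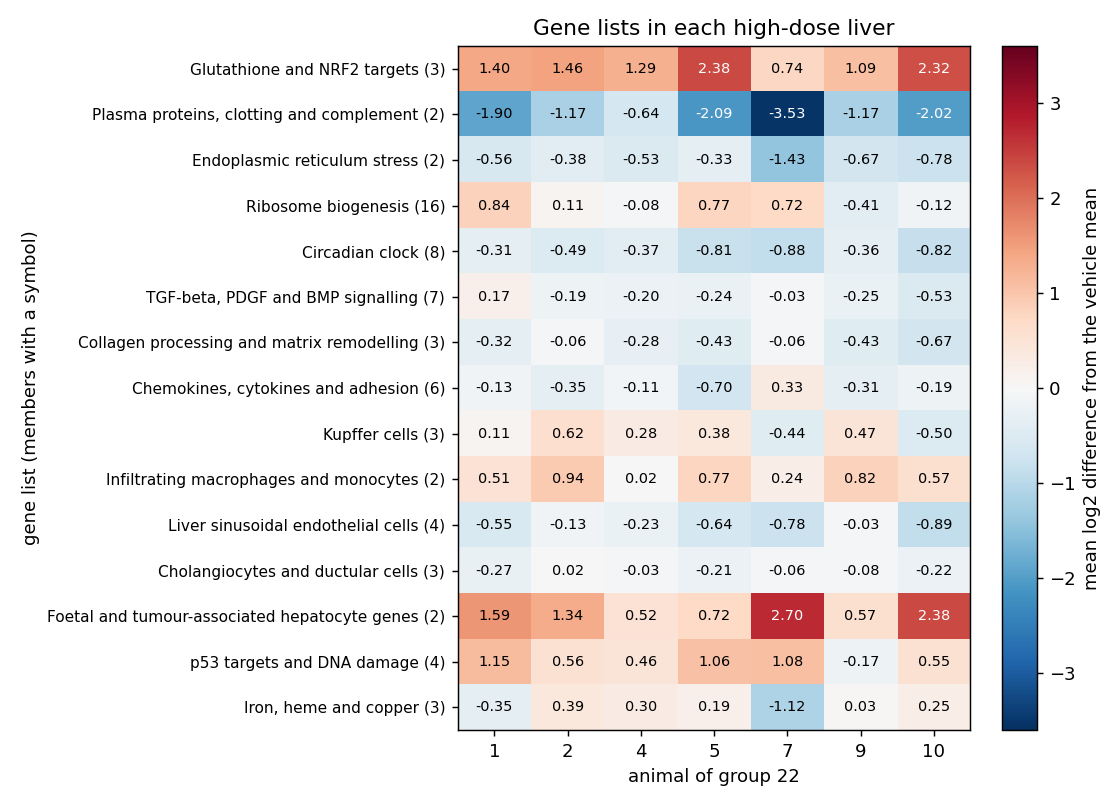
Mean log2 difference from the vehicle mean (colour and printed value) over the members of a gene list (rows, number of members with a symbol in brackets) in each animal of group 22 (columns). Animal 7 has the lowest values for the plasma protein list (−3.53) but the lowest rise of the 7 for the glutathione list (0.74), and ribosome biogenesis genes are high in 3 animals only.

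The detoxifying genes did not follow the order of the overall response. Of 3 readable members of the glutathione and NRF2 list, 2 rose (Gstm3l and Akr7a3) and Gss (glutathione synthetase) differed by 0.62 ± 0.15, adjusted p = 4.0e-04, under 2-fold, with a median of 1.75 over the list. Akr7a3, an aldehyde reductase, had 2028, 1983, 2412, 3109, 1918, 1555 and 3462 normalized counts in group 20. In group 22 it had 6623, 7733, 5344, 15991, 2233, 5192 and 12448 in animals 1, 2, 4, 5, 7, 9 and 10 (log2 fold change 1.75 ± 0.33 (SE), adjusted p = 9.5e-06). 6 livers were above the vehicle range, while animal 7 lay within it. Gstm3l, a glutathione S-transferase matched to the list through its former name, went from between 50.4 and 181 to between 393 and 1587 (2.51 ± 0.34, adjusted p = 5.7e-09), with the highest values in animals 10 and 5. The mean log2 difference over the 3 genes was 2.38 in animal 5 and 2.32 in animal 10, and 0.74 in animal 7, the lowest of the 7. Without animal 7 the same 2 members were called and the median was 1.92. In the high-dose groups of cohorts A, B and C the mean over the 3 genes lay between 1.22 and 2.49.

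Among cytochrome P450 genes, Cyp1a2 (a P450 of the central vein zone) differed by −0.78 ± 0.38, adjusted p = 0.083, and by −1.08 without animal 2, past 2-fold. Without animal 7 it did not pass the adjusted p (−0.58, adjusted p = 0.22). It was at 1271 in animal 7 and between 4214 and 17276 in the others, against 9189 to 20089 in group 20. Cyp2c24, a P450 with low counts in the vehicle livers (14.2 to 211), rose to 521, 812, 802, 1518, 350.4, 529.5 and 1816 in animals 1, 2, 4, 5, 7, 9 and 10 (3.64 ± 0.54, adjusted p = 6.8e-08), and animal 7 was the lowest of the 7.

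Cyp1a1, the P450 best known for its induction through the aryl hydrocarbon receptor, had the largest SD of the called genes with a symbol that averaged over 50 normalized counts in group 22. It had 7.22, 1.36, 8.3, 18.5, 12.3, 18.5 and 18.6 normalized counts in group 20. In group 22 it had 70.1, 881, 5.59, 162, 28, 147 and 456 in animals 1, 2, 4, 5, 7, 9 and 10 (log2 fold change 4.35 ± 1.05 (SE), adjusted p = 4.7e-04). Animal 4 stayed within the vehicle range and animal 7 was just above it, so the order of the animals differed from that of the overall response. The receptor gene itself, Ahr, differed by −0.05 ± 0.25, adjusted p = 0.89.

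Both readable plasma protein genes fell, Igfals (above) and Cfb (complement factor B, 509 to 792 against 154 to 490.0, −1.25 ± 0.18, adjusted p = 3.6e-08). Insig1 (which holds back cholesterol synthesis) rose by 1.02 ± 0.41, adjusted p = 0.036. Without animal 7 its log2 fold change was 0.94, under 2-fold, and it also fell short of 2-fold without any 1 of 4 other animals (0.90 at the lowest). Fgfr4, the hepatocyte receptor for the bile-acid-regulated factor FGF15, differed by −0.88 ± 0.14, adjusted p = 5.6e-07 with no overlap between the groups, under 2-fold. Tat did not pass the test (−0.07 ± 0.37, adjusted p = 0.9), but ranged from 6524 in animal 7 to 61339 in animal 2. The transcription factor gene Nfe2l2, which encodes NRF2, differed by −0.33 ± 0.17, adjusted p = 0.12.

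Of 6 readable chemokine, cytokine and adhesion genes, 1 rose and 1 fell. Ccl2, which attracts monocytes, had 14.4, 9.53, 27.7, 24.7, 23.5, 17.1 and 18.6 normalized counts in group 20. In group 22 it had 465, 37.7, 20.1, 174, 1789, 41.8 and 223 in animals 1, 2, 4, 5, 7, 9 and 10 (log2 fold change 4.34 ± 0.72 (SE), adjusted p = 9.6e-07). Animal 4 lay within the vehicle range, and animal 7 was nearly 4 times above the next highest liver. Without animal 7 the log2 fold change was 3.05. Cxcl12, a chemokine of sinusoidal cells and stroma, fell from between 11922 and 22774 to 2664, 5941, 9512, 1656, 4928, 8483 and 5373 in animals 1, 2, 4, 5, 7, 9 and 10 (log2 fold change −1.49 ± 0.24 (SE), adjusted p = 3.4e-07), lowest in animal 5 and not in animal 7. Il33 (−0.87 ± 0.24, adjusted p = 0.0025, and −1.03 without animal 4, past 2-fold) and Il17ra (−0.58 ± 0.09, adjusted p = 4.2e-08) were lower by less than 2-fold.

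Of the readable markers of immune cells, 1 was called. Cd4, present on T cells and on rat macrophages, rose from between 746 and 987 to between 1258 and 2497 (1.10 ± 0.17, adjusted p = 9.5e-08) and was called with and without animal 7. None of the 3 Kupffer cell genes was called. Cd5l, made by Kupffer cells, was at 1192 in animal 7 and at 2288 to 5629 in the other 6, against 2197 to 4126 in group 20 (0.15 ± 0.31, adjusted p = 0.73). C1qb differed by 0.52 ± 0.16, adjusted p = 0.0069 and was highest in animal 7. Of the 2 readable macrophage genes, Ctss (cathepsin S) was higher in all 7 treated livers than in any vehicle liver, by less than 2-fold (0.89 ± 0.16, adjusted p = 3.8e-06), and Cd14 differed by 0.26 ± 0.25, adjusted p = 0.41. The mast cell and progenitor receptor gene Kit differed by 0.14 ± 0.18, adjusted p = 0.54.

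In the TGF-beta, PDGF and BMP list, 1 of 7 readable members rose and 2 fell. Id1, a target of BMP signalling, rose from between 17.3 and 80.3 to between 63.6 and 566 (2.28 ± 0.36, adjusted p = 2.1e-07), with the highest level in animal 1 and the lowest, within the vehicle range, in animal 2. Vegfa, the main endothelial growth factor, was among the evenly changed genes. It had 8249.8, 7623, 6218, 5759, 8366, 8491 and 8489.8 in group 20 and 3618, 3541, 4158, 2773, 2565, 4258 and 3289 in animals 1, 2, 4, 5, 7, 9 and 10 (log2 fold change −1.14 ± 0.14 (SE), adjusted p = 5.2e-10). Inhba, the activin A subunit, fell from between 825 and 1336 to between 141 and 802 (−1.38 ± 0.34, adjusted p = 5.9e-04) and was least reduced in animal 7 (802). Bmp2 differed by 0.03 ± 0.17, adjusted p = 0.9, and Ski, a repressor of TGF-beta signalling, by −0.64 ± 0.16, adjusted p = 5.3e-04. None of the 3 readable matrix remodelling genes was called, among them Bmp1 (the procollagen C-proteinase, −0.69 ± 0.12, adjusted p = 3.0e-06) and Loxl4 (a collagen cross-linking enzyme, −0.84 ± 0.25, adjusted p = 0.0049). The other, Adamts1 (a secreted metalloprotease, named after its values were seen), was higher by less than 2-fold (0.80 ± 0.26, adjusted p = 0.0077). None of the 4 sinusoidal endothelial genes was called either. Kdr, the VEGF receptor, was at 1213 to 3232 in group 22 and 3199.9 to 5338 in group 20 (−0.87 ± 0.20, adjusted p = 2.7e-04), and Ehd3 differed by −0.40 ± 0.19, adjusted p = 0.073, and without animal 7 by −0.22, adjusted p = 0.29.

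Of the genes of cholangiocytes and ductular cells, St14 (the protease matriptase) rose and Onecut2 fell. St14 had 61.3 to 108 normalized counts in group 20 and 165, 245, 199, 249, 631, 261 and 245 in animals 1, 2, 4, 5, 7, 9 and 10 (1.77 ± 0.26, adjusted p = 4.0e-08). The 6 other treated livers were close together and animal 7 was more than 2 times higher. Onecut2, a transcription factor, fell from between 739 and 1074 to 458, 438, 468, 326, 183, 394 and 385 in animals 1, 2, 4, 5, 7, 9 and 10 (−1.25 ± 0.21, adjusted p = 1.6e-06), again with animal 7 apart. Both readable foetal hepatocyte genes rose. Ggt1 (gamma-glutamyl transferase) had 14.8 to 72.8 in group 20 and 111, 96.4, 43.6, 27.1, 319.7, 33.7 and 375 in animals 1, 2, 4, 5, 7, 9 and 10 (2.12 ± 0.53, adjusted p = 7.7e-04), so animals 7 and 10 were far above and animals 4, 5 and 9 within the vehicle range. Aldoa, a glycolytic aldolase, rose from between 1600.3 and 2396 to between 2673 and 7559 (1.24 ± 0.15, adjusted p = 1.6e-10).

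Genes of ribosome biogenesis divided the treated livers. Of 16 readable members 1, Nop58, was called, and 14 of 16 had a positive log2 fold change, with a median of 0.26. Nop58 (a core protein of the box C/D snoRNPs that modify rRNA) had 643, 622, 765, 835, 632, 639 and 538 normalized counts in group 20 and 2314, 729, 689, 1913, 2232, 557 and 929.5 in animals 1, 2, 4, 5, 7, 9 and 10 (log2 fold change 1.004 ± 0.20 (SE), adjusted p = 3.0e-05). Animals 1, 5 and 7 were well above the other 4. The fold lay at the threshold, and the call was lost without any 1 of these 3 animals (0.84, 0.93 and 0.84) and without 5 of the vehicle livers (0.96 to 0.99). Nolc1, a nucleolar protein, was at 2702, 2633 and 2725 in the same 3 animals and at 949.9 to 1529.8 in the other 4, against 1389 to 1540.3 in group 20. Ddx21, an RNA helicase of the nucleolus, was at 5102, 5069 and 5073, and at 1529 to 3061. Without animal 7, Nolc1 (0.25, adjusted p = 0.24) and Ddx21 (0.33, adjusted p = 0.16) did not pass the adjusted p, which both had passed with it. Over all 16 genes the mean log2 difference was 0.84, 0.77 and 0.72 in animals 1, 5 and 7 and between −0.41 and 0.11 in the other 4. In the high-dose groups of cohorts A, B and C the same mean lay between −0.19 and 0.63, and in group 20 between −0.10 and 0.18. The 3 animals were of different necropsy dates and different F1 sires.

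Among stress genes, Plk3 (a kinase of the DNA damage response) was the 1 of 4 readable p53 targets to rise, by 1.11 ± 0.31, adjusted p = 0.0024, and 0.96 without animal 7, no longer past 2-fold, nor was it without animal 5 (0.94). Cdkn1a (the p21 cell cycle inhibitor) varied widely in the vehicle livers, from 245 to 2591, and differed by 0.17 ± 0.43, adjusted p = 0.78. Both readable endoplasmic reticulum genes were lower by less than 2-fold, Edem1 by −0.80 ± 0.26, adjusted p = 0.0079 and Herpud1 by −0.43 ± 0.20, adjusted p = 0.068. Herpud1 did not pass the adjusted p without animal 7 (−0.36, adjusted p = 0.16). All 8 readable clock genes had negative log2 fold changes, with a median of −0.57, and 2 were called, Dbp (−1.25 ± 0.54, adjusted p = 0.054) and Nr1d1 (−1.26 ± 0.58, adjusted p = 0.068). Without animal 7, animal 5 or vehicle animal 9 both stayed past 2-fold (−1.13, −1.11 and −1.03 for Dbp, and −1.10, −1.15 and −1.07 for Nr1d1) but no longer passed the adjusted p, and the clock time of each necropsy was not used here. Of the iron genes Tfrc (the transferrin receptor) rose from between 1211 and 2281 to between 2829 and 5557 (1.22 ± 0.23, adjusted p = 6.7e-06), whereas Hjv (hemojuvelin, needed for hepcidin expression) differed by −0.78 ± 0.19, adjusted p = 5.8e-04, and by −0.60 without animal 7, in which it was at 778 against 2041 to 3878 in the other 6.

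Of 9 genes that the study names and that could be read, Vegfa alone was called. Il17ra and Ski are given above, and Hells, a chromatin remodeller whose identifier carries a second name, differed by −0.56 ± 0.23, adjusted p = 0.047. Zbtb16 (−0.50 ± 0.70, adjusted p = 0.59), Acer2 (0.34 ± 0.23, adjusted p = 0.24), Lpin1 (−0.44 ± 0.43, adjusted p = 0.42), Slc10a2 (0.08 ± 0.29, adjusted p = 0.85) and Ahr did not pass the test. The study chose these genes on these samples.

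Among the called genes with a symbol that averaged over 50 normalized counts in group 22, the 5 with the largest SD included Cyp1a1, Ccl2, Edar and Gpx2, with SDs of 2.39, 2.27, 1.92 and 1.72 on the log2 scale. Edar, the ectodysplasin receptor gene, had 195 to 698 normalized counts in group 20 and 77.5, 322, 275, 62.5, 8.79, 155 and 16.4 in animals 1, 2, 4, 5, 7, 9 and 10 (−1.91 ± 0.45, adjusted p = 3.9e-04). It was lowest in animals 7 and 10, while animals 2 and 4 lay within the vehicle range. Within the same set, the 5 with the smallest SD were Pgm2, Ebi3, Fam193b, Atp1b1 and Pirb, with SDs from 0.19 to 0.25. Pgm2 had 261, 306, 253, 223, 202, 235 and 227 in group 20 and 442, 511, 397, 511, 611, 501 and 511 in animals 1, 2, 4, 5, 7, 9 and 10 (log2 fold change 1.03 ± 0.10 (SE), adjusted p = 3.3e-13). Animal 7 was the highest, and without it the log2 fold change was 0.98, just under 2-fold, as it was without vehicle animal 7 (0.99). Ebi3, a subunit of the cytokines IL-27 and IL-35, rose from between 15.6 and 39 to between 78.9 and 116 (1.82 ± 0.32, adjusted p = 3.7e-06). Pirb, an inhibitory receptor of myeloid cells, rose from between 104 and 173 to between 233 and 383 (1.27 ± 0.22, adjusted p = 2.9e-06), and Atp1b1, the beta subunit of the sodium pump, from between 910.0 and 1655 to between 2099.8 and 3437 (1.18 ± 0.23, adjusted p = 2.4e-05). Fam193b fell from between 612 and 1178 to between 293 and 472 (−1.18 ± 0.19, adjusted p = 6.6e-07). The median over genes that were not called was 0.36. The genes were picked by their SD, so this is a description.

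The size of the high-dose effect in cohort D was compared with the mean of the effects in cohorts A, B and C by an interaction contrast. No gene passed an adjusted p under 0.1 in edgeR's test, 0% of those tested, and 1669 genes (8.78%) had an unadjusted p under 0.05. DESeq2 called 13 genes, of which 2 had a symbol. The genes with a symbol and the smallest p were Shank3, Tbc1d17, Wwc1, Ddr1 and Tcf3, all with an adjusted p of 0.56. Shank3 differed between the groups by −0.41 in cohort D, which was −0.71 ± 0.18 relative to the other cohorts. Ddr1, a collagen receptor, was at 2015 normalized counts in vehicle animal 4 and at 54.3 to 110.9 in the other 6, so its interaction of −2.13 ± 0.62 included 1 vehicle liver that stood apart. Without vehicle animal 4 the high dose differed from vehicle by 3.00 on the log2 scale in cohort D and was called. For the most uneven genes the interaction estimates were 1.80 ± 0.78 for Ccl2, 0.51 ± 0.92 for Gpx2 and −0.18 ± 0.33 for Igfals.

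With the low dose (group 21, 8% CCl4) against the same vehicle livers, 807 genes were called, 766 higher (4.03%) and 41 lower (0.216%), in all 4.25% of those tested. The response per liver over the 2633 genes was between 0.39 and 1.16 in group 21, so the weakest high-dose liver (1.39) was above the strongest low-dose liver. Normalized counts averaged 7.16, 16 and 422 for Gpx2 with vehicle, low and high dose, 223, 407 and 1609 for Unc5b, and 19.3, 73.6 and 393 for Ccl2. Unc5b (0.87 ± 0.26, adjusted p = 0.029) and S100a6 (1.95 ± 0.49, adjusted p = 0.0053) were already higher at the low dose, the first by less than 2-fold. For Lrtm2, Igfals and Cxcl12 the low-dose log2 differences were −0.46, −0.46 and −0.30 and did not pass the test. Both comparisons share the vehicle livers, so they are not independent.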

How the data were processed

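Liver pieces of F2 males were ground, total RNA was extracted and stranded mRNA libraries were sequenced as read pairs. The authors estimated transcript abundance with Salmon 0.14.0 (per the labels) on Ensembl's rat transcriptome, and gene values are sums over transcripts. The deposited liver table holds estimated counts per gene, as whole numbers without normalization. It lists 31998 identifiers, 7043 of them with no liver count. A second deposited table of average transcript lengths (another unit, bases) was used as offsets in alternatives alone. Kidney tables were not used.

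Animals were grouped by the labels. The tools were edgeR 4.0.16, DESeq2 1.42.0 and limma 3.58.1 under R 4.3.3. A gene was tested if its counts summed to more than 10 within any of the 12 liver groups. Counts were scaled with TMM, and all 83 livers were fitted with edgeR's quasi-likelihood model. Group contrasts were called at a Benjamini-Hochberg adjusted p under 0.1 with a log2 fold change beyond 1 either way, and the interaction at the adjusted p alone. Normalized counts were scaled to the mean effective library size, and log2 values had 1 added. On simulated counts for group 22 against 20, edgeR recovered 197 of 200 genes changed by 1.5 on the log2 scale, with 6 other calls among 17879 genes. The simulation gave every group the spread of group 20 and changed only these 200 genes. It therefore does not show recovery or false calls at the wider spread and many changes of the real group 22.

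Symbols came from a supplementary table of the study, with no symbol inferred from an identifier. Named genes were up to 4 called and 2 not called members of each list, the 10 largest rises and falls without overlap, the 5 largest and smallest SDs within group 22, the genes the study names, and the 5 smallest interaction p-values. Some of the genes that these rules name are not reported here. The members, lists and rules were chosen with earlier results of these data known. Replicate numbers were checked for pairing on the residuals of groups 20 and 22. The correlations of same-numbered animals lay between −0.08 and 0.13, so numbers were not taken as pairs. P-values measure the spread between animals of outbred stock, some of them littermates. A count of 0 allows up to 3 counts, which covers counting error only. Alternatives were other size factors, DESeq2, length offsets, other filters, an adjusted p under 0.05, fewer groups in the fit, blocks for date, replicate number or litter, and leaving out each animal or date. The low-dose alternatives, the interaction with single animals left out, and the lists and response without animal 7 were added after seeing the data.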

Additional observations from a re-analysis of the deposited data

Results flagged for a closer look

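A value was taken to stand apart when its gap to the nearest of the 7 animals, divided by the range of the group, exceeded Dixon's critical value for 7 samples. Of 22 measures per liver and 164 pairs of a named gene and a group, 3 and 7 did so, and chance gives about 1 in 20. The mean correlation of animal 7 with the other livers of group 22, 0.845 against 0.908 to 0.926, had a ratio of 0.773. In group 22 the log2 normalized counts of animal 7 stood apart for Hjv (ratio 0.600), Igfals (0.592), Onecut2 (0.615) and St14 (0.657), all beyond the other 6 in the direction of the group's difference. A2m in animal 1 had a ratio of 1, since the other 6 livers were at 0.

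In group 20 the low response of vehicle animal 5 had a ratio of 0.585, and 0.593 when measured as a slope on the mean response of the other cohorts. Its values were −0.14 against −0.01 to 0.09, small beside those of group 22. For single genes, vehicle animal 2 was low for Cyp1a1 (0.590) and vehicle animal 4 was high for Ddr1 (0.804). The response of animal 7 itself, 3.18 against 2.19 for the next highest, did not reach the critical value.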

How the results depend on the processing

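The count of genes changed by the high dose, 4303, lay between 3461 (replicate block, groups 20 and 22) and 4502 (no filter) under the other size factors, tests, filters, fits and blocks, and 3871 passed an adjusted p under 0.05. Leaving out single animals gave 3491 (animal 7) to 4675 (animal 4), and leaving out single dates 3434 to 4769. The replicate numbers were not shown to pair the animals. The block lost the calls of Nop58 (0.81) and Plk3 (0.97) among the named genes and added Cyp1a2 and Ddr1 (2.06). Nop58 also lost its call with a block for date (0.98). With edgeR and length offsets, Nop58 (0.97) and Insig1 (0.9997) were no longer past 2-fold. The mean, lowest and highest response per animal, the median SD of group 22 and the low-dose count moved within the limits set for them.

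The interaction gave 0 genes with edgeR, 13 with DESeq2, 11 with DESeq2 and length offsets, 1 with edgeR and length offsets, and from 0 to 1 when single animals were left out. The cause of these differences was not tested. Genes near 0 changed sign without being called. Leaving out single animals gave −0.160 to 0.045 for Ahr, −0.0596 to 0.1402 for Bmp2, −0.014 to 0.408 for Cdkn1a, −0.119 to 0.312 for Slc10a2 and −0.3919 to 0.116 for Tat on the log2 scale. Bmp2 was at −0.00129 with a block for date and −0.014 with the replicate block. Without animal 7, Insig1, Nop58, Pgm2 and Plk3 were no longer past 2-fold, and Dbp and Nr1d1 no longer passed the adjusted p. Each also lost its call without at least 1 other animal. Depth limits what can be said of genes with few counts.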
